A study of Mus musculus with 12 samples.

Results

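A set of 9 retinoid handling genes was followed in mouse skin, the retinol carrier Rbp2, the retinoic acid carriers Crabp1 and Crabp2, the retinaldehyde dehydrogenases Aldh1a1, Aldh1a2 and Aldh1a3, the retinol dehydrogenase Dhrs9, the retinol receptor Stra6 and the retinoic acid hydroxylase Cyp26b1. They are 9 of the 53465 genes counted, were chosen by name with results of these comparisons known, and all 9 are among the 15126 genes past a filter on low counts. Their counts of calls are therefore a description, and no p is given for them.

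Skin RNA was sequenced in bulk from Foxp3-WT mice, with the wild-type form of Foxp3, the transcription factor of regulatory T cells, and from Foxp3-DE2 mice. The sample labels write the altered genotype Foxp3-E2, the protocol writes Foxp3-DE2 and the series title Foxp3dExon2, and these were taken as 1 genotype (DE2). The irradiated groups, 1 of each genotype, received 6 doses of ultraviolet B light (UVB) on a shaved patch of the back flank, and the untreated groups are an untreated control site. The dose is 200 mJ/cm2 in the sample labels and 100 mJ/cm2 in the protocol, and which was used could not be settled. The sources used here do not say whether the control site was shaved, what the age and sex of the mice were, or in which cells the altered form is made. Each of the 4 groups holds 3 libraries. Libraries are not tied to animals by any label, so the p-values measure the spread between libraries, which may be technical in part and may include shared animals.

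Vitamin A circulates as retinol bound to a plasma carrier, and Stra6 moves it from that carrier into cells. Inside, retinol is held by cellular retinol binding proteins, of which Rbp2 is best known from the gut, and is oxidised in 2 steps, by dehydrogenases such as Dhrs9 to retinaldehyde and by the Aldh1a enzymes to retinoic acid. Crabp proteins bind retinoic acid, which acts on nuclear receptors, and Cyp26 enzymes break it down. In skin the pathway is known for its part in epidermal differentiation, the hair cycle and the sebaceous gland.

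The sequences before the RefSeq starts are shown because Rbp2 and Crabp1 had the largest fitted rises with UVB in DE2, Aldh1a1 was the member called lower there, and Rbp2 and Dhrs9 are the members with the retinoid receptor half-site AGGTCA. Promoters came from RefSeq's table for GRCm38.p6 (250 bases before to 50 after each start), which held 11 promoters of 7 members. Crabp2 and Aldh1a3 were not among them. Only the 250 bases before the start are printed, 5′ to 3′ on the plus strand, with capitals for matches to the motifs searched on either strand. The motifs were AGGTCA and its variants, given in the next paragraph, the AP-1 motif TGANTCA and the TATA motif TATAAA. The stretches lie at chr9:98490287-98490536 (Rbp2), chr9:54764498-54764747 (Crabp1), chr19:20492333-20492582 (Aldh1a1) and chr2:69380212-69380461 (Dhrs9). The RefSeq start of Rbp2 lies 4422 bases inside the gene as annotated for the counts, whose first base belongs to another start, while the other 3 starts lie within 132 bases of the annotated one.
Rbp2: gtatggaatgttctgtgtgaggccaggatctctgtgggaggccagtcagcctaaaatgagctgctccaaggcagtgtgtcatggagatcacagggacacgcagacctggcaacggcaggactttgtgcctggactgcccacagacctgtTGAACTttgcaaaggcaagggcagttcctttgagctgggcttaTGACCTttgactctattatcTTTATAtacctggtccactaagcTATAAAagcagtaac
Crabp1: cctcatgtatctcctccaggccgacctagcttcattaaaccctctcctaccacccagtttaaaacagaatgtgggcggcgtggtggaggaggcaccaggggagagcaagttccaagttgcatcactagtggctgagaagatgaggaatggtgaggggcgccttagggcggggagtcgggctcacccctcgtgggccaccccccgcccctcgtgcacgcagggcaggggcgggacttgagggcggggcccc
Aldh1a1: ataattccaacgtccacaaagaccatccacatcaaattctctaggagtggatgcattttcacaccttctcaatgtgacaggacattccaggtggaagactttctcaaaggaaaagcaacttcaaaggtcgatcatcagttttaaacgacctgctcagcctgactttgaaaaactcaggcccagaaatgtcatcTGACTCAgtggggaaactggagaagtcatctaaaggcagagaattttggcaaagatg
Dhrs9: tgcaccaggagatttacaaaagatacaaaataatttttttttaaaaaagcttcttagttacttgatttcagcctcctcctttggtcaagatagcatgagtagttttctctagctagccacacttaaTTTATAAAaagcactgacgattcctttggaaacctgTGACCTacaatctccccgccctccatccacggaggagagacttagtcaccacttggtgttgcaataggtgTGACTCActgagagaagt

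The Rbp2 stretch holds AGGTCA on the minus strand at -58 to -53 from the RefSeq start and the variant AGTTCA on the same strand at -101 to -96. TATAAA lies on the minus strand at -38 to -33 and on the plus strand at -15 to -10. In Dhrs9 AGGTCA lies on the minus strand at -88 to -83, AP-1 at -18 to -12, and 2 TATAAA matches overlap at -124 to -117. The printed Aldh1a1 stretch has an AP-1 match at -57 to -51. Another RefSeq promoter of Aldh1a1, from chr19:20601718 and not printed, holds the variant GGGTCA at -49 to -44 from its own start. The Crabp1 stretch has no match and the highest GC content of those printed, 63.6%. Of 32851 promoters of the same length, 16.3% hold AGGTCA, 14% hold AGTTCA, 13.7% hold the variant GGGTCA, 7.81% hold AP-1 and 13.6% hold TATAAA. No member promoter holds a direct repeat of these half-sites with 1, 2 or 5 bases between, the forms known for retinoid receptors, and such repeats are in 0.195%, 0.0883% and 0.0731% of all promoters. A match is only a match of letters.

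Total counts ran from 2809142 to 4741726 per library, and values below are CPM (counts divided by the library's total, corrected for composition and brought to 1 scale), ± SD with n = 3. Foxp3 had 1 and 7 counts in irradiated DE2 replicates 1 and 2 and 0 counts in the other 10 libraries, was not tested, and gene counts cannot show its exon 2. The untreated DE2 libraries stood apart from the others in markers of other cells. The summed level of 14 hair matrix and inner root sheath markers was 389 to 1138 CPM in untreated DE2, with Shh at 0. It was 9432 to 19089 CPM in untreated WT, and with UVB it was 21185 to 22255 CPM in WT and 8361 to 13697 CPM in DE2. Skeletal muscle markers (10 genes) ran from 54019 to 116942 CPM in sum in untreated DE2, and from 23877 to 30505, 11462 to 50198 and 21790 to 27942 CPM in untreated WT, irradiated WT and irradiated DE2. In irradiated DE2, 6 neutrophil markers summed to 4171 to 4465 CPM and 6 stressed keratinocyte markers to 15543 to 20218 CPM. No other group passed 381 CPM for the first and 2569 CPM for the second, and the neutrophil markers Clec4d and Clec4e were at 0 in untreated WT. Epidermal keratinocyte markers, the check on the labelled tissue, summed to 20252 to 25223 CPM in irradiated DE2 and to 4798 to 12626 CPM in the other libraries. In irradiated DE2 the mean sum was 23281 CPM, of which Krt14 alone had 15618 CPM. Of the 7 markers 4 were called higher and 2 lower with UVB in DE2, and 3 higher and 1 lower between irradiated genotypes. These stand beside 14.4% and 13.4%, and 2.35% and 0.608%, of all genes tested. Melanocyte markers (5 genes) summed to 12.2 to 22.9 CPM in untreated DE2, with Tyr at 0, and to 570.2 CPM or more elsewhere. For 6 markers of dividing cells the sums were 67.2 to 97.0 CPM in untreated DE2 and 380.3 CPM or more elsewhere. In bulk RNA fewer cells of a type and less RNA per cell cannot be told apart.

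**Figure D1:**
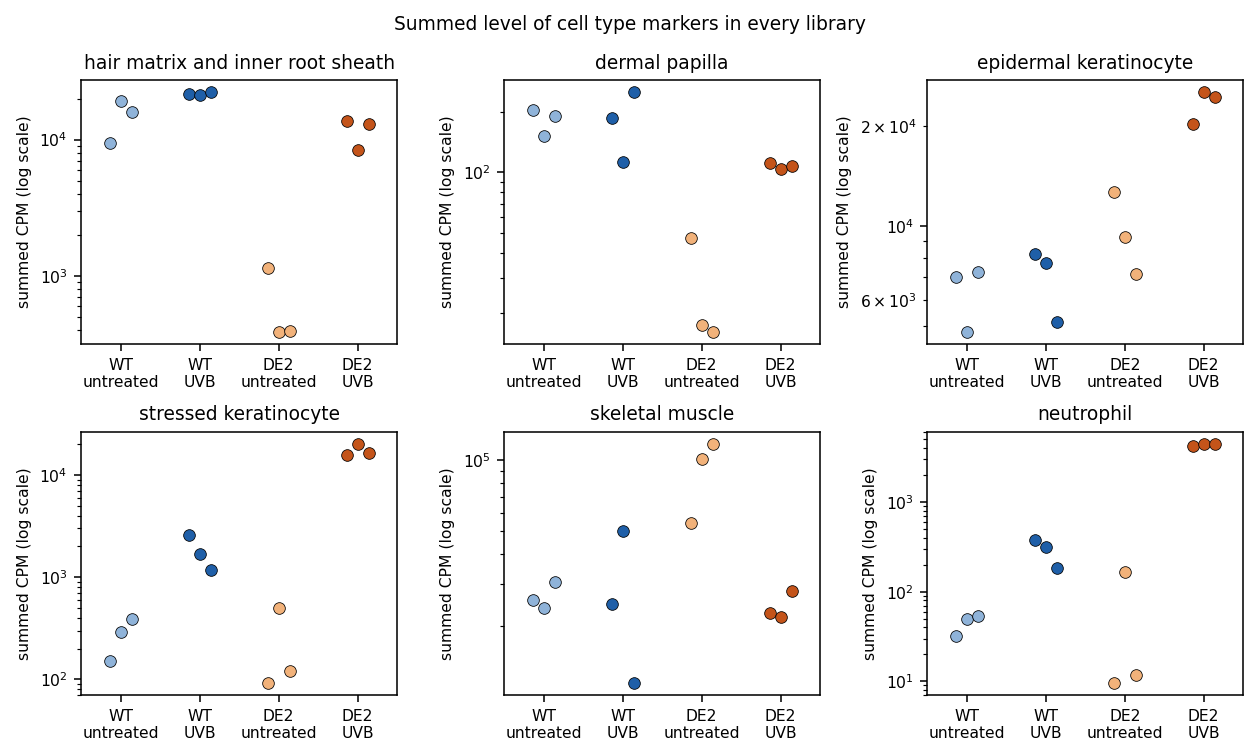
Summed CPM of 6 marker lists in each of the 12 libraries, on log axes, with 1 point per library. The untreated DE2 libraries are lowest for both hair follicle lists and highest for skeletal muscle, and the irradiated DE2 libraries are highest for stressed keratinocyte and neutrophil markers.

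Of the intracellular carriers, Rbp2 and Crabp2 were higher in all 3 irradiated DE2 libraries than in any other library, and Crabp1 was lower in all 3 untreated DE2 libraries than in any other. Rbp2 (ENSMUSG00000032454, GRCm38 chr9:98486115-98509781, plus strand, 5 exons in its longest transcript) was at 6.97, 4.66 and 6.04 CPM in untreated WT and 31.8, 19.7 and 23.7 CPM in irradiated WT. In DE2 it was at 9.75, 9.05 and 4.45 CPM untreated and 157.5, 205 and 180.1 CPM irradiated. The untreated groups overlap, irradiated WT lies above both, and irradiated DE2 lies above all other libraries. The log2 fold change with UVB was 2.08 ± 0.30 (approximate SE) in WT and 4.53 ± 0.31 in DE2, a difference of 2.45 ± 0.42. Between genotypes it was 0.40 ± 0.32 untreated and 2.85 ± 0.28 irradiated.

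Crabp2 (ENSMUSG00000004885, chr3:87948666-87953376, plus strand), which carries retinoic acid to its nuclear receptors, was at 36.8, 54.1 and 61.1 CPM in untreated WT and 82.5, 109 and 57.2 CPM in irradiated WT. It was at 41.7, 24.6 and 29.7 CPM in untreated DE2 and 271, 313 and 279 CPM in irradiated DE2. The WT groups overlap, as do the untreated groups, and every irradiated DE2 library is above the other 9. The log2 fold change with UVB was 3.16 ± 0.28 in DE2 and 0.71 ± 0.26 in WT, and DE2 exceeded WT by 1.79 ± 0.26 at the irradiated site.

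Crabp1 (ENSMUSG00000032291, chr9:54764748-54773110, plus strand), another cytoplasmic carrier of retinoic acid, was at 38.3, 18.9 and 25.6 CPM in untreated WT and 25.2, 21.9 and 48.3 CPM in irradiated WT. In DE2 it was at 7.31, 2.26 and 3.06 CPM untreated and 34.0, 174.7 and 58.3 CPM irradiated. Untreated DE2 lies below every other library, while the irradiated genotypes overlap and DE2 replicate 2 stands above the rest. Its log2 fold change was 4.37 ± 0.64 with UVB in DE2, and from WT to DE2 in untreated skin the log2 level fell by 2.68 ± 0.63. Between irradiated genotypes the log2 difference was 1.49 ± 0.54, not past the threshold, and 0.54 without irradiated DE2 replicate 2. Untreated DE2 levels thus overlapped untreated WT for Rbp2 and Crabp2 and lay below it for Crabp1.

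**Figure D2:**
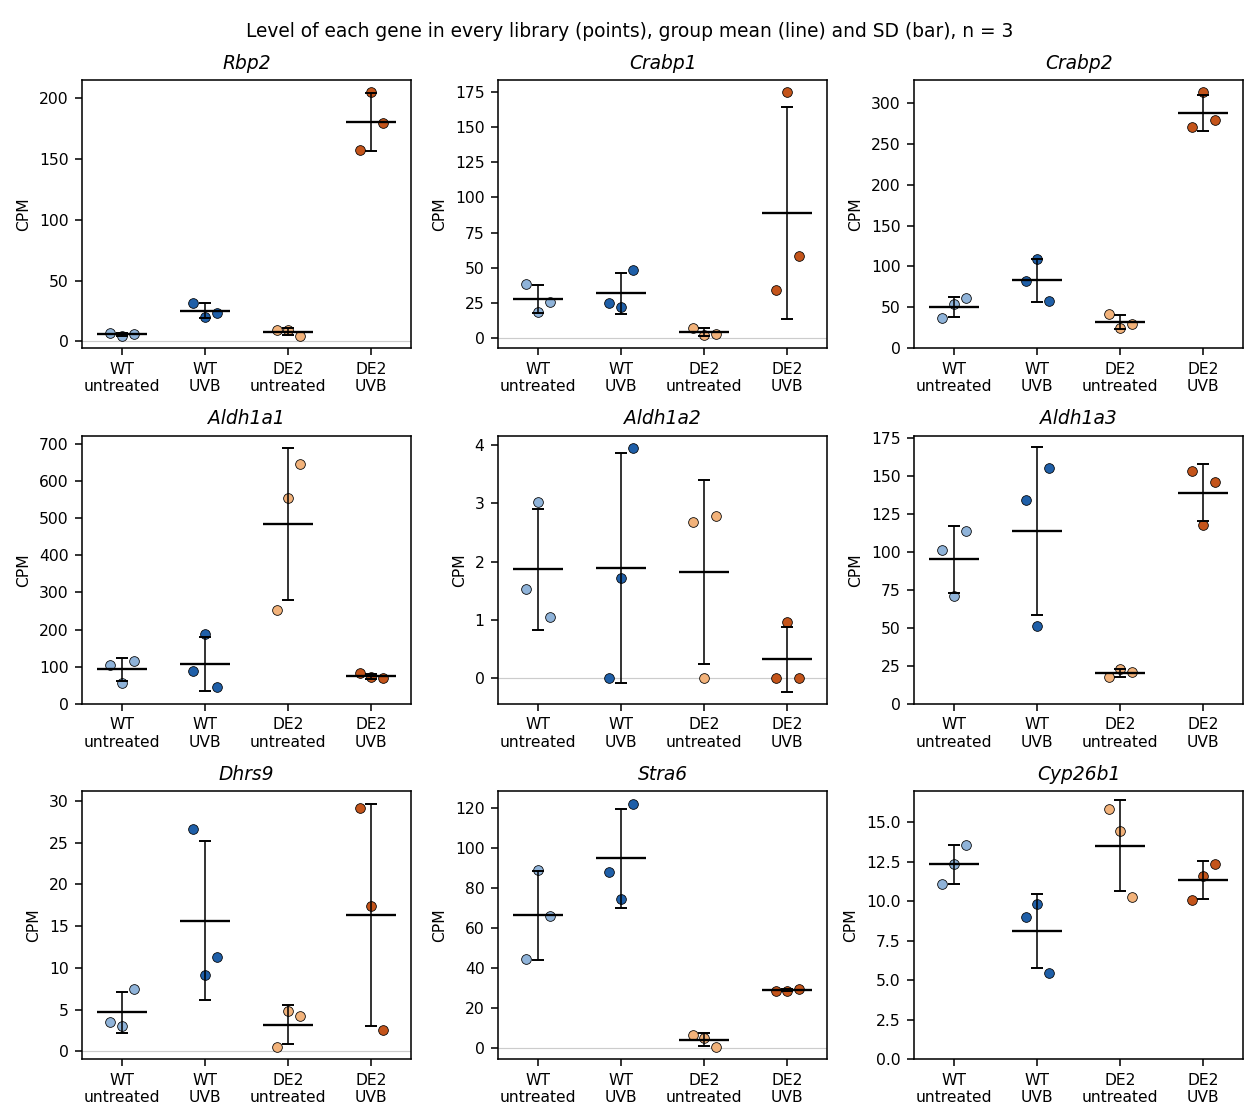
CPM of each of the 9 genes in every library (points), with group means (lines) and SD (bars), n = 3, on linear axes. Rbp2 and Crabp2 are highest in the 3 irradiated DE2 libraries, Aldh1a1 is highest and Aldh1a3, Crabp1 and Stra6 are lowest in the 3 untreated DE2 libraries.

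Stra6 (ENSMUSG00000032327, chr9:58063788-58153996, plus strand), the cell surface receptor for retinol on its plasma carrier, followed another order. It was at 44.4, 89.0 and 65.9 CPM in untreated WT and 87.9, 74.3 and 122 CPM in irradiated WT. In DE2 it was at 6.58, 4.81 and 0.28 CPM without UVB and 28.6, 28.3 and 29.5 CPM with it. Every DE2 library was below every WT library at both sites, and the WT groups overlap. The lowest value rests on 1 count. From WT to DE2 it fell by 4.06 ± 0.52 on the log2 scale in untreated skin and by 1.72 ± 0.44 in irradiated skin, and with UVB in DE2 it rose by 2.86 ± 0.51. The irradiated call held in 3 of 12 fits that left out 1 library, with values between -1.87 and -1.50. Hair matrix and inner root sheath markers and melanocyte markers were lowest in the untreated DE2 libraries, as Stra6 was. The mean log2 CPM of the hair matrix and inner root sheath markers was used as a covariate. With it Stra6 was at -0.92 between untreated genotypes, 0.18 with UVB in DE2 and -1.04 between irradiated genotypes. None was called, and of all genes tested 0, 2 and 220 were called there. The part of these markers in the result was not otherwise tested.

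The 3 Aldh1a enzymes, which make the last, irreversible step to retinoic acid, moved apart. Aldh1a1 (ENSMUSG00000053279, chr19:20492715-20643465, plus strand) was at 105, 56.6 and 116 CPM in untreated WT and 88.8, 186.9 and 44.4 CPM in irradiated WT. DE2 libraries held 253.9, 555 and 645 CPM without UVB and 82.4, 72.1 and 69.6 CPM with it. Untreated DE2 is above every other library, and the other groups overlap. Its log2 fold change was 2.39 ± 0.46 for DE2 against WT untreated and fell by 2.70 ± 0.47 with UVB in DE2.

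Aldh1a1 was high in the libraries in which skeletal muscle markers were high. In untreated DE2 those markers summed to 54019, 100826 and 116942 CPM in replicates 1 to 3, the order of Aldh1a1. The order was also shared in irradiated WT (24708, 50198 and 11462 CPM) and in untreated WT (25625, 23877 and 30505 CPM). It was not shared in irradiated DE2 (22688, 21790 and 27942 CPM), where replicate 3 had the highest muscle sum and the lowest Aldh1a1. Pearson's r of the log2 values was 0.973 over 12 libraries and 0.886 over the 9 without untreated DE2, a description of libraries that share tissue content. The mean log2 CPM of the muscle markers was then used as a covariate. With it the Aldh1a1 differences were 0.20 for genotype untreated and -0.59 for UVB in DE2, and both calls were lost. Over all genes tested calls also fell, from 23.0% to 2.05% between untreated genotypes and from 27.8% to 4.17% with UVB in DE2. The part of muscle content in the result was not otherwise tested.

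Aldh1a3 (ENSMUSG00000015134, chr7:66390890-66427517, minus strand) was at 101, 70.6 and 113 CPM in untreated WT and 134, 51.2 and 155 CPM in irradiated WT. It was at 17.5, 22.9 and 20.6 CPM in untreated DE2, below every other library, and at 153, 118 and 146 CPM in irradiated DE2, within the range of irradiated WT. Its level fell by 2.23 ± 0.34 on the log2 scale from WT to DE2 in untreated skin and rose by 2.77 ± 0.34 with UVB in DE2. Aldh1a2 (ENSMUSG00000013584, chr9:71215789-71296243, plus strand) was barely detected, with 7, 13 and 5 counts in untreated WT, 0, 7 and 13 in irradiated WT, 11, 0 and 10 in untreated DE2 and 0, 4 and 0 in irradiated DE2. No Aldh1a2 contrast was called, and a library count of 0 allows up to 0.812 to 1.09 CPM in these libraries, by 3 counts of the total, which covers counting error only.

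Per kilobase of exon, Aldh1a1 made up 48.5%, 40.8% and 48.4% of the summed level of the 3 enzymes in untreated WT, and 91.2%, 95.8% and 95.8% in untreated DE2. In irradiated DE2 it made up 33.5%, 36.0% and 30.9%, below every untreated library, with Aldh1a3 the main form. In irradiated WT the share was 38.2%, 76.2% and 20.3%, so this group spans most of the range and no direction can be read from it. With lengths of the longest transcript in place of all exons, the mean shares were 57.2%, 53.8%, 96.4% and 44.0% in untreated WT, irradiated WT, untreated DE2 and irradiated DE2.

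**Figure D3:**
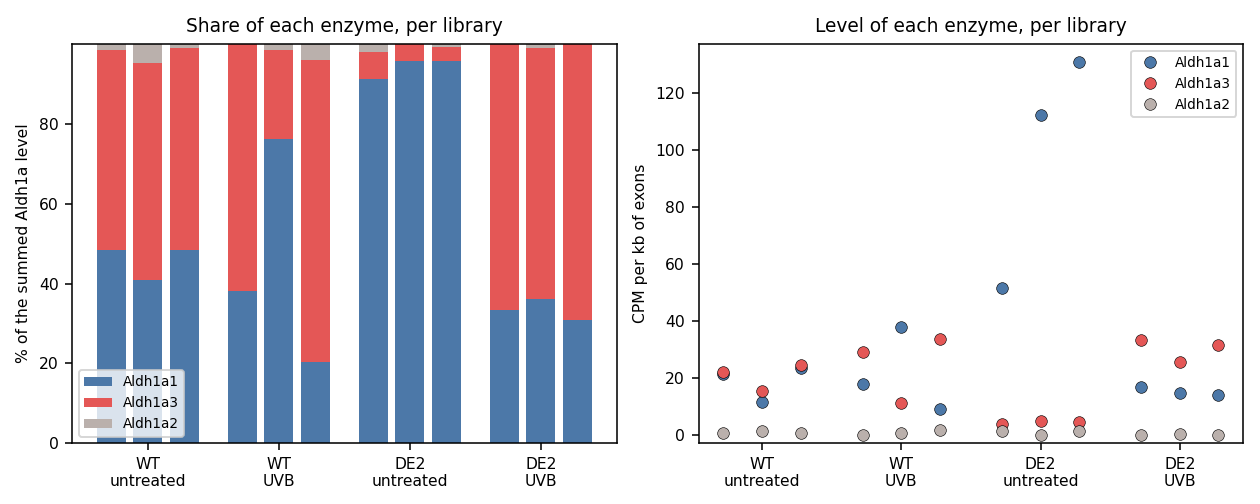
Left, share of each Aldh1a enzyme in their summed level per kilobase of exon, 1 bar per library. Right, the level of each enzyme in CPM per kilobase, 1 point per enzyme and library. Aldh1a1 takes 91.2% or more in the untreated DE2 libraries and 30.9% to 36.0% in the irradiated DE2 libraries.

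Dhrs9 (ENSMUSG00000027068, chr2:69380445-69404533, plus strand), a short-chain dehydrogenase that can oxidise retinol, was at 3.48, 3.03 and 7.50 CPM in untreated WT and 26.6, 9.10 and 11.3 CPM in irradiated WT, which do not overlap. In DE2 it was at 0.49, 4.81 and 4.17 CPM untreated and 29.1, 17.4 and 2.55 CPM irradiated, which do overlap, the lowest irradiated value resting on 7 counts. The log2 fold change with UVB was 1.73 ± 0.79 in WT, not past the threshold, and 2.39 ± 0.83 in DE2, past it. That DE2 call held in 7 of 12 fits without 1 library and was lost without any 1 untreated DE2 library or without irradiated DE2 replicate 1 or 2, with values from 1.75 to 2.89. The difference between the genotypes' UVB changes was 0.66 and was not called.

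Cyp26b1 (ENSMUSG00000063415, chr6:84571414-84593908, minus strand), which hydroxylates retinoic acid for removal, stayed within a narrow range. It was at 11.1, 12.3 and 13.5 CPM in untreated WT and 9.04, 9.84 and 5.47 CPM in irradiated WT. DE2 libraries held 15.8, 14.4 and 10.3 CPM without UVB and 10.1, 11.6 and 12.4 CPM with it. Irradiated WT lies below untreated WT and below irradiated DE2 without overlap, but the log2 differences were only -0.60 and 0.48 and none of the 5 contrasts was called.

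Called members, with an adjusted p under 0.05 in edgeR's quasi-likelihood test, are set beside the share of all genes tested, from which nothing is read since the members were chosen with these comparisons known. With UVB in WT 1 of 9 members was called (Rbp2, higher), against 0.0198% of genes, which are Rbp2, Klk6 and Flg, named after their values were seen. With UVB in DE2 7 were called, 6 higher and 1 lower, against 27.8%. Between untreated genotypes 4 were called, 1 higher and 3 lower in DE2, against 23.0%. Between irradiated genotypes 3 were called, 2 higher and 1 lower in DE2, against 2.96%. For the interaction 6 were called, 5 with a higher and 1 with a lower UVB change in DE2, against 10.5%. Groups without overlap were seen for 3 members with UVB in WT (10.1% of genes), 6 with UVB in DE2 (41.5%), 4 between untreated genotypes (39.8%) and 4 between irradiated genotypes (21.3%). The median log2 fold change of the members was 0.25, 2.77, -0.58 and 0.29 in these 4 comparisons, against 0.03, 0.02, 0.03 and -0.03 over all genes tested. The comparisons share groups, so they are not independent of each other.

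**Figure D4:**
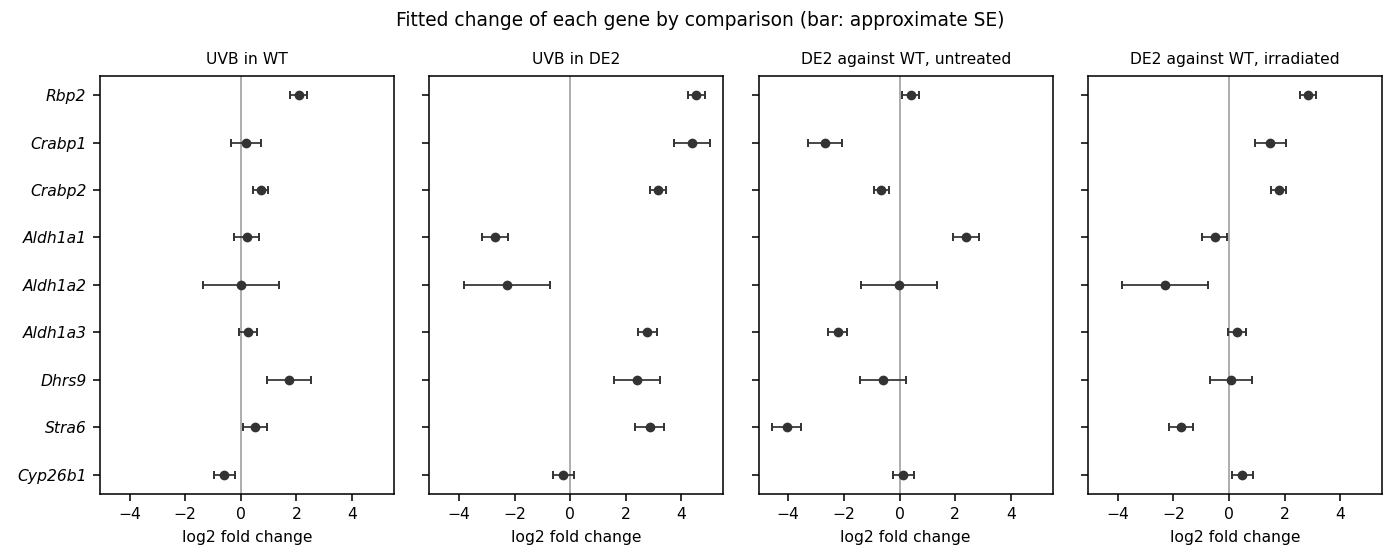
Fitted log2 fold change of each of the 9 genes in 4 comparisons, with approximate SE as bars. With UVB in DE2, 6 genes lie at 2.39 or above and Aldh1a1 at -2.70, while in WT the 2 highest values are Rbp2 at 2.08 and Dhrs9 at 1.73.

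Rbp2 was called in WT in 5 of the 12 fits that left out 1 library. The call was lost without any 1 untreated WT library, irradiated WT replicate 1 or any 1 irradiated DE2 library, while the log2 fold change stayed between 1.87 and 2.23. The interaction call of Stra6 held in 4 of 12 such fits, with values from 1.78 to 2.98. With the muscle covariate the calls that held were Rbp2 for UVB in WT, Rbp2, Crabp2 and Aldh1a3 for UVB in DE2, Stra6 between untreated genotypes, Rbp2, Crabp2 and Stra6 between irradiated genotypes and Crabp2 for the interaction. Of all genes tested it left 4.17% called with UVB in DE2, 2.05% between untreated genotypes and 1.43% for the interaction. With UVB in WT it left 0.0397% called. Between irradiated genotypes 4.01% were called with it, more than the 2.96% without it. With the hair follicle covariate Rbp2 for UVB in WT and Rbp2 and Crabp2 between irradiated genotypes held, at 2.08, 2.85 and 2.03. Of all genes tested 0.0661% were called with UVB in WT and 1.45% between irradiated genotypes with that covariate. In the 3 comparisons that use untreated DE2 no member was called with it, and over all genes 2, 0 and 1 were called there (the 3 lowest values of that covariate are those of the untreated DE2 libraries).

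Levels of different genes were compared as CPM per kilobase of exon. In untreated WT the order was Crabp2 (38.3), Crabp1 (34.4), Aldh1a3 (20.6), Aldh1a1 (18.7), Stra6 (11.4), Rbp2 (6.12), Cyp26b1 (2.30), Dhrs9 (1.09) and Aldh1a2 (0.82), and the first 5 overlap each with its neighbour. In untreated DE2 Aldh1a1 led at 98.1, apart from Crabp2 at 24.2, and Stra6 was last at 0.67, within the spread of Aldh1a2 and Dhrs9. In irradiated DE2 Crabp2 (217.7), Rbp2 (188) and Crabp1 (111) led, each overlapping the next, and all Crabp1 libraries were above Aldh1a3 (30.1). In irradiated WT Crabp2 (62.7), Crabp1 (39.7) and Rbp2 (26.0) led, with neighbours overlapping down to Stra6 (16.3). With lengths of the longest transcript the order changed for some genes. Aldh1a1 was then second in untreated WT (39.2) and in irradiated WT (45.2), Rbp2 was the fifth in irradiated WT (31.2), and Stra6 (1.26) was above Aldh1a2 and Dhrs9 in untreated DE2. Together the 3 carriers reached 411 to 668 CPM per kilobase in irradiated DE2, against 127 to 130.4 in irradiated WT, 69.3 to 84.4 in untreated WT and 30.9 to 50.8 in untreated DE2.

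The other genes of the pathway were listed by role, 40 in all, of which 31 passed the filter. With UVB in WT 0 of 31 were called by edgeR and 0 by DESeq2, with 2 at an unadjusted p under 0.05. With UVB in DE2 10 were called, 4 higher and 6 lower. Each of the 4 higher calls held in all 12 fits that left out 1 library, and the 6 lower calls held in 4 to 12 of 12. Between untreated genotypes 8 were called, 5 higher and 3 lower in DE2, with 3 without any 1 untreated WT library and 4 without untreated DE2 replicate 3. Between irradiated genotypes 2 were called, both higher in DE2, and 1 without any 1 irradiated library other than WT replicate 2. Of the 2, Fabp5 held in all 12 fits that left out 1 library. Dgat1 lost its call without any 1 irradiated library, WT replicate 2 included. For the interaction 3 were called, 2 higher and 1 lower, and 1 without irradiated DE2 replicate 2 or 6 without untreated DE2 replicate 1. As shares of the 31 these were 32.3% with UVB in DE2, 25.8% between untreated genotypes, 6.45% between irradiated genotypes and 9.68% for the interaction, beside 27.8%, 23.0%, 2.96% and 10.5% of all genes tested. The median log2 fold changes were -0.02, -0.22, 0.06, 0.13 and -0.41.

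Among the transport and storage genes, of which 9 were tested, 1 rose (Lrat) and 1 fell with UVB in DE2. That is 22.2% of them, beside 27.8% of all genes tested. The fall held in 8 of 12 fits that left out 1 library. Lrat, which esterifies retinol for storage, went from 0.73, 5.38 and 3.06 CPM to 29.1, 79.9 and 68.2 CPM with UVB in DE2, by 4.28 ± 0.68 (adjusted p = 0.000442, edgeR). Dgat1, which makes retinyl and other esters, was at 33.8 to 42.7 CPM in irradiated WT and 87.8 to 92.0 CPM in irradiated DE2, a log2 fold change of 1.24 ± 0.29 (adjusted p = 0.031, edgeR). Without any 1 irradiated library the adjusted p of Dgat1 was 0.0701 to 0.116. Fabp5, a fatty acid carrier that can also deliver retinoic acid, is on another list (synthesis, breakdown and delivery), of which it was the only gene tested. It was the most abundant gene of the lists by count. In WT it was at 741 to 860 CPM without UVB and 784 to 1373 CPM with it, and in DE2 at 124 to 202 CPM and 2908 to 3516 CPM. Its log2 fold changes were 4.36 ± 0.29 with UVB in DE2 (adjusted p = 3.25e-07, edgeR), -2.33 ± 0.26 between untreated genotypes (2.34e-05) and 1.52 ± 0.26 between irradiated genotypes (0.00503).

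Of 14 redox enzymes tested, 2 rose and 4 fell with UVB in DE2, and 4 were higher and 1 lower in untreated DE2 than in untreated WT. Of all genes tested 14.4% rose and 13.4% fell with UVB in DE2, and 11.8% were higher and 11.2% lower in untreated DE2. With UVB in DE2 the 2 rises held in all 12 fits that left out 1 library, and the 4 falls in 4 to 12 of 12. Sdr16c5, an epidermal retinol dehydrogenase, was at 21.1 to 32.7 CPM untreated and 62.0 to 81.6 CPM irradiated in DE2, by 1.47 ± 0.28 (adjusted p = 0.00141, edgeR). Rdh11, which mainly reduces retinaldehyde, was at 32.0, 38.2 and 43.1 CPM in untreated WT and 12.7, 15.3 and 8.89 CPM in untreated DE2, by -1.62 ± 0.31 (adjusted p = 0.00219, edgeR). Dhrs4 was higher in untreated DE2 by 0.89 ± 0.23 (adjusted p = 0.0127, edgeR) and Rdh14 by 1.28 ± 0.34 (adjusted p = 0.0133). Without 1 untreated WT library the adjusted p was 0.0553 to 0.0618 for Rdh14, and for Dhrs4 it was 0.0813 without replicate 2 and 0.0573 without replicate 3. Muscle markers were high in the same untreated DE2 libraries. The muscle covariate left 2.05% of all genes called between untreated genotypes and 4.17% with UVB in DE2. With the muscle covariate the value was -1.32 for Rdh11 (adjusted p = 0.369, edgeR), 0.50 for Dhrs4 (0.732) and 0.22 for Rdh14 (0.941), and 1.65 for the UVB change of Sdr16c5 (0.0674), so the calls were lost while Rdh11 and Sdr16c5 stayed near their values and those of Dhrs4 and Rdh14 became smaller.

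None of the receptors Rara, Rarb, Rarg, Rxra and Rxrb was called in any of the 5 contrasts. The lowest adjusted p was 0.0537 (edgeR), for Rxra, higher in untreated DE2 by 0.60 ± 0.21 and called there by DESeq2, and Rxra had an unadjusted p under 0.05 in 3 contrasts. Rarb had at most 16 counts in a library and shares exon bases with Top2b on the other strand, so its reads cannot be told apart from those. Rxrg, the retinoid X receptor of muscle and nerve, was at no more than 24.5 CPM in untreated WT and at 7.12, 40.3 and 5.47 CPM in irradiated WT. DE2 libraries held 41.9, 125.9 and 118.9 CPM without UVB and 6.29 to 10.3 CPM with it. It fell by 3.42 ± 0.65 with UVB in DE2 (adjusted p = 0.00192, edgeR), and its interaction of -3.08 ± 0.87 (adjusted p = 0.0395) lost its call without any 1 library other than irradiated WT replicates 1 and 3 and untreated DE2 replicate 1, with adjusted p from 0.077 to 0.132 and a value of -1.59 without irradiated WT replicate 2. With the muscle covariate the UVB change of Rxrg in DE2 was -0.62 (adjusted p = 0.704, edgeR) and its interaction 0.21. Of all genes tested 4.17% and 1.43% were called there.

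Of 11 listed genes known to respond to retinoic acid, 9 were tested, and 2 rose and 3 fell with UVB in DE2, 2 were higher and 1 lower in untreated DE2, 1 was higher in irradiated DE2 (2.35% of all genes tested) and 0 of 9 were called with UVB in WT (edgeR and DESeq2, 0 at an unadjusted p under 0.05). Calls in both directions were also made over all genes, at the shares given for the redox enzymes. Cyp26a1, a direct target of retinoic acid receptors, had 0 counts in all 12 libraries and was named after its counts were seen. Hbegf, an epidermal growth factor family ligand, was at 95.5, 96.8 and 95.5 CPM in irradiated DE2 and at 27.4, 21.4 and 11.3 CPM in irradiated WT, by 2.26 ± 0.37 (adjusted p = 0.00477, edgeR). Its UVB change in DE2 was 2.74 ± 0.38 (adjusted p = 0.000142, edgeR). Tgm2, a transglutaminase that shares exon bases with Rprd1b, was higher in untreated DE2 by 1.67 ± 0.35 (adjusted p = 0.00368, edgeR). With the muscle covariate its value was 0.11 (adjusted p = 0.958, edgeR), where 2.05% of all genes were called. Lrat, given above, is also on this list. Of the calls between untreated genotypes, that of Tgm2 held in all 12 fits that left out 1 library. That of Lrat held in 6 of 12 and that of the remaining gene in 2 of 12, and the last was also lost with RLE scaling and with no filter.

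**Figure D5:**
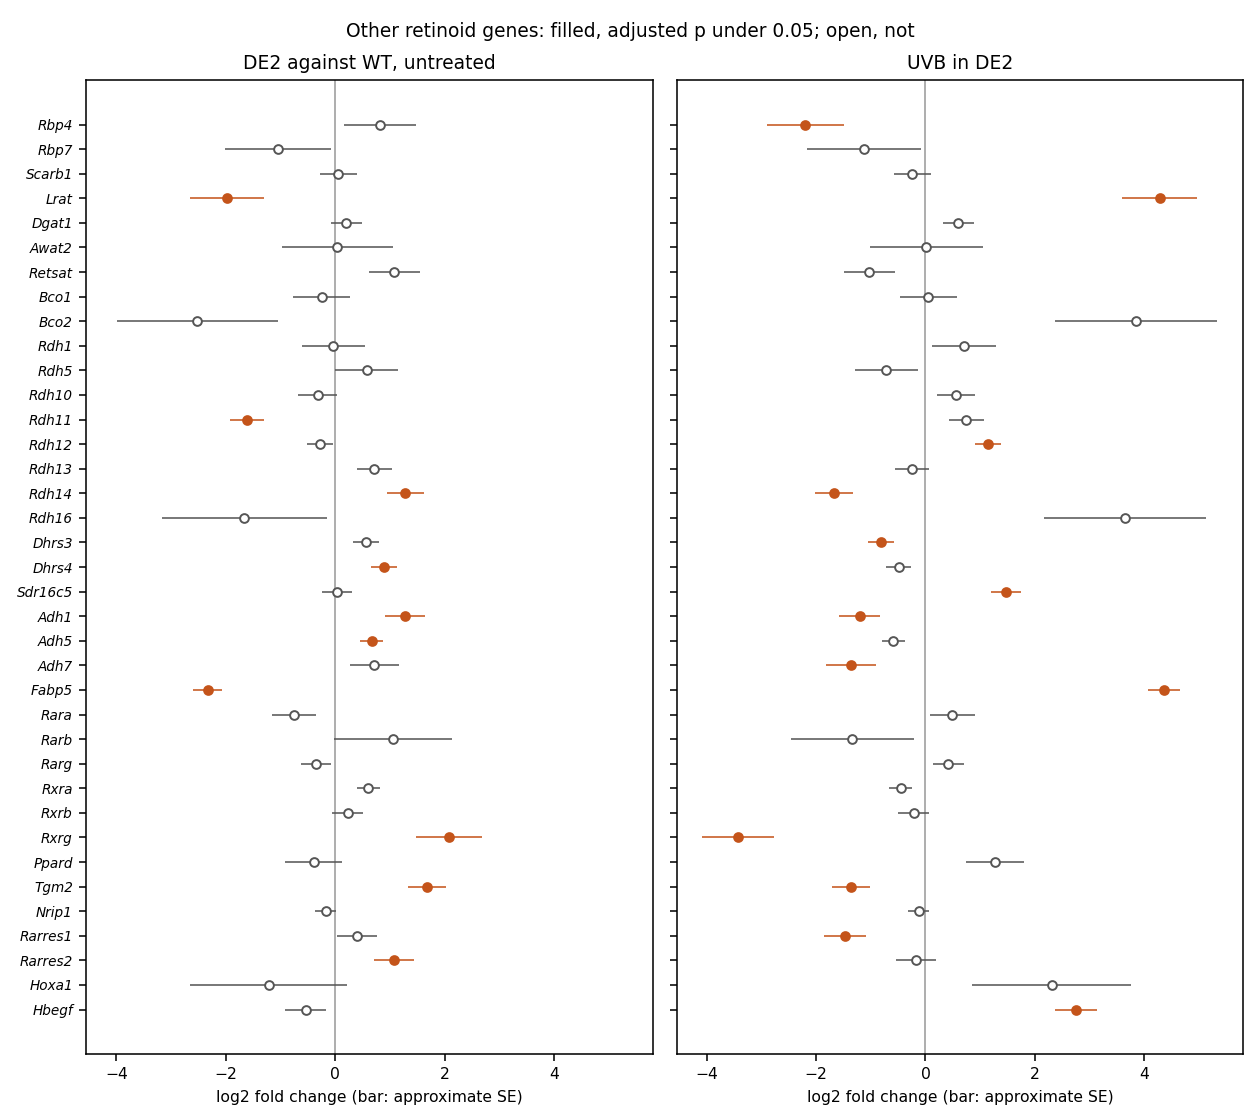
Fitted log2 fold change of the other retinoid genes tested, with approximate SE as bars, between untreated genotypes (left) and with UVB in DE2 (right). Filled points have an adjusted p under 0.05. Lrat and Fabp5 lie left of 0 in the first panel and at 4.28 and 4.36 in the second.

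Among the members themselves, Rbp2 and Crabp2 had the most alike levels, with Pearson's r of log2 CPM of 0.923 over 12 libraries and 0.938 over the 9 without untreated DE2. Aldh1a1 and Aldh1a3 ran opposite, at -0.883 and -0.57. Stra6 and Crabp2 had r of 0.372 over 12 and -0.748 over 9, so the sign depended on the untreated DE2 libraries. Rbp2 followed the summed stressed keratinocyte markers (0.955 and 0.981) and neutrophil markers (0.938 and 0.987), and Crabp2 did likewise (0.928 and 0.966, 0.895 and 0.975). Both also followed the summed epidermal keratinocyte markers (0.836 and 0.912 for Rbp2, 0.762 and 0.939 for Crabp2), in which Krt14 had the highest mean in every group. Stra6 followed hair matrix and inner root sheath markers (0.932 and 0.831) and melanocyte markers (0.917 and 0.874). These are descriptions over libraries that share group, depth and tissue content. Beyond the covariate fits given above, the part of these cells in the members' changes was not tested.

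Of 13727 genes, those most like each member over the 12 libraries were 2610528A11Rik, Sprr2a3 and Stfa3 for Rbp2 (r 0.976 to 0.988), of which Sprr2a3 and Stfa3 belong to families of near-identical copies. They were Klk7, Lypd3 and Pla2g4f for Crabp2 (0.972 to 0.973), Atxn2l, Actb and Tagln2 for Crabp1 (0.96 to 0.963), and Tcf7, Gpnmb and Pthlh for Stra6 (0.98 to 0.986). For Aldh1a1 they were Adssl1, Snapin and Pdk2 (0.985 to 0.987) and for Aldh1a3 Krtap5-3, Gm29735 and Gm4553 (0.97 to 0.974). Without untreated DE2 the values were 0.979 to 0.99 for the Rbp2 genes, 0.972 to 0.99 for Crabp2, 0.845 to 0.887 for Crabp1, 0.864 to 0.969 for Stra6, 0.916 to 0.927 for Aldh1a1 and 0.845 to 0.924 for Aldh1a3. The low or variable members had lower values, with Nkap, Rbmx and Sh2b2 for Aldh1a2 (0.846 to 0.904), Ercc6l2, Snx2 and Ubqln1 for Dhrs9 (0.86 to 0.872) and Zfp335os, Prkg1 and Il20rb for Cyp26b1 (0.894 to 0.952).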

How the data were processed

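Bulk RNA from skin was measured in 12 libraries, 3 in each of 4 groups taken from the labels. The authors deposited 1 table of raw counts per library, by Ensembl gene and not normalized. The submitters' processing notes list the build GRCm38 and, with no order, HTSeq 2.0.2, SAMtools 1.16, Picard 3.1.0 and Trimmomatic 0.39. The sources used here do not give the aligner, annotation release, strand setting or treatment of duplicates. With no strand known, genes that overlap on opposite strands share reads that cannot be separated. No exon of a member overlaps another gene in the annotation used. Symbols and positions came from a GENCODE annotation of GRCm38, which named 53360 of 53465 identifiers.

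Counts were fitted in R 4.3.3 with edgeR 4.0.16 (quasi-likelihood, robust, TMM scaling, edgeR's filter on low counts, 15126 genes, 1 mean per group over all 12 libraries, 8 residual degrees of freedom) and 5 contrasts. P-values were adjusted over the 15126 genes by Benjamini-Hochberg, and genes under 0.05 were called. The common dispersion was 0.128. SE were worked back from the test statistic. CPM are on TMM-scaled totals, and log2 CPM used a prior count of 1. The fit was also run on simulated counts with the same dispersion for every gene and few changed genes. That setting is simpler than these data, so nothing is read from it. Counting error alone is covered by a limit from 3 counts. Alternatives were RLE scaling, total counts, no filter, DESeq2 1.42.0, muscle and hair follicle marker covariates, leaving out each library, and, chosen after seeing the data, leaving out irradiated WT replicate 2 and untreated DE2 replicate 1 together.

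The members and lists were chosen with earlier results of these data known. The text names all 9 members, the 5 receptors Rara, Rarb, Rarg, Rxra and Rxrb, at most 6 genes with the smallest p of each contrast among called genes of the pathway and response lists, and the 3 genes most like each member. A listed gene is not reported here and stays out of the counts of the lists, though not of the fit. Replicate numbers follow accession order and pair nothing.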

Additional observations from a re-analysis of the deposited data

Results flagged for a closer look

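The interaction term of the fit was called for 6 of the 9 members and 4 of the other retinoid genes, beside 10.5% of all genes tested. Those 4 are 3 of the 31 pathway genes and 2 of the 9 response genes tested, with Lrat on both lists. The call held in 4 of 12 fits that left out 1 library for Stra6, 3 of 12 for Rxrg and 10 of 12 for Lrat. It held in all 12 for the rest. The log2 UVB change in DE2 minus that in WT was 2.45 for Rbp2, 4.17 for Crabp1, 2.45 for Crabp2, 2.52 for Aldh1a3 and 2.34 for Stra6, and it was -2.90 for Aldh1a1. Among the other genes it was 3.69 for Lrat, 3.85 for Fabp5 and 2.8 for Hbegf, and -3.08 for Rxrg. Rbp2, Crabp2 and Hbegf were not called between untreated genotypes (0.40, -0.66 and -0.54) and were called between irradiated genotypes (2.85, 1.79 and 2.26). For Crabp2 the untreated difference was called in 3 of 12 fits that left out 1 library, with values from -0.91 to -0.47. The other 7 genes were called between untreated genotypes. Muscle markers were high and hair follicle markers low in the 3 untreated DE2 libraries, and for these 7 that cannot be told apart from genotype at that site. The interaction values of Rbp2, Crabp2 and Hbegf use the same untreated DE2 libraries.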

How the results depend on the processing

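Of 45 member values (9 genes in 5 contrasts), RLE scaling, no filter and DESeq2 left all 45 within 1 SE of the reported value and turned the direction of no called value. With total counts 40 stayed so, 0 members were called with UVB in WT 4 pathway genes between untreated genotypes and 5 for the interaction. Total counts moved the median of all genes to -0.371 between untreated genotypes, 0.26 with UVB in DE2 and 0.381 for the interaction, so higher calls there went from 1782 of 3477 to 788 of 3799, from 2180 of 4202 to 2712 of 4080, and from 853 of 1585 to 1220 of 1588. With the muscle covariate 3 members and 2 pathway genes were called for UVB in DE2, 1 and 2 between untreated genotypes, and 1 member for the interaction. Of all genes tested 4.17%, 2.05% and 1.43% were called there. With the hair follicle covariate 0 members and 0 pathway genes were called in these 3 comparisons and 1 pathway gene between irradiated genotypes. Of all genes tested 1.45% were called between irradiated genotypes with it. Direction was checked for called values only. With the hair follicle covariate it turned for Aldh1a1 with UVB in DE2 (1.0), between untreated genotypes (-1.81) and in the interaction (0.55), and for Stra6 in the interaction (-0.12). The cause was not tested. Leaving out irradiated WT replicate 2 and untreated DE2 replicate 1 together gave 1 pathway gene with UVB in WT and 5 for the interaction. Leaving out 1 library at a time gave 0 to 1 members with UVB in WT, 3 to 9 pathway genes between untreated genotypes, 1 to 2 between irradiated genotypes and 1 to 6 for the interaction. No paired analysis was possible because the labels give no replicate numbers. Depth limits Aldh1a2, with 70 counts in all, and Dhrs9, with 456.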
